A study of Homo sapiens with 14 samples.

Results

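The genes described here were the replication-dependent histone genes of chromosome 6, in LX-2 cells on a soft or a stiff matrix. Members were chosen by symbol and position alone, as the protein-coding genes between 25 and 29 Mb of chromosome 6 whose symbol starts with H1-, H2AC, H2BC, H3C or H4C. This gave 51 genes of 19821 in the annotation, 6 for linker histone H1, 12 for H2A, 13 for H2B, 10 for H3 and 10 for H4. A further H4 gene of the interval is listed under its older symbol HIST1H4B and was therefore neither a member nor a neighbour. The other 44 protein-coding genes of the same interval, mainly zinc finger, butyrophilin and solute carrier genes, served as neighbours.

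LX-2 is an immortalised human hepatic stellate cell line, a single line labelled wild type in all groups, and the cells spent 2 days on the soft or the stiff matrix. CUT&Tag, a method in which a transposase tethered to an antibody cuts out the bound chromatin for sequencing, was run for phosphorylated JUN (p-JUN), H3K4me3, H3K27ac and H3K27me3. Each mark had 2 libraries per matrix with their own peak list, except H3K27ac with 1 merged list per matrix, which made 14 lists. The titles of the histone mark and soft p-JUN libraries carry the label of the matrix, whereas the p-JUN libraries labelled stiff carry TCP, the study's name for culture plastic. Whether those p-JUN cells were on the stiff matrix or on plastic cannot be told apart here. The study's methods call its sequencing replicates biological, and the labels do not say which libraries came from separate cultures, so p-values measure only the spread between these libraries.

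Replication-dependent histone genes supply the histones that package newly made DNA. Their transcription peaks in S phase, in nuclear bodies organised by the coactivator NPAT, and they are short genes whose mRNAs end in a stem-loop bound by SLBP in place of a poly(A) tail. Octamer elements bound by POU2F1 and CCAAT boxes bound by NF-Y are well-known features of their promoters. JUN belongs to the AP-1 family, which binds the element TGACTCA. Together with ATF proteins, JUN also binds the cyclic AMP response element, TGACGTCA. H3K4me3 marks active promoters, H3K27ac active promoters and enhancers, and H3K27me3 is the mark of Polycomb repression.

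All 51 genes had a single exon in their canonical transcript, 40 were under 1 kb long, and 7 had more than 1 annotated start site. They lay in 4 blocks, with 2 genes in 3.95 kb (chr6:25723625-25727573), 28 in 269 kb (chr6:26017260-26285866), 5 in 21.7 kb (chr6:27093676-27115341) and 16 in 86.4 kb (chr6:27775257-27861669), all in GRCh37. The sequence of the mRNA end marked the genes as a class. The consensus histone stem-loop, searched on the strand of the gene, was found within 150 bases after the stop codon in 48 of 51 members, or 94.1%, against 0 of 44 neighbours and 0.334% of all genes with such a stretch. The exceptions were H2BC10, H3C6 and H4C13. Among 14 replication-dependent genes elsewhere in the genome 13 held it, and H2AX was the 1 of 11 variant histone genes with it. Most members shared 1 core, found in 30 genes, and a core with an altered stem was found in 7 genes, all for H4. Another core was also found in 7 genes, none for H4 (H1-1, H1-6, H2BC4, H2BC5, H2BC11, H2BC12 and H3C8). A further core was found in 2 genes, H4C9 and H4C12, and H2AC11 and H2AC15 each had a core of their own. An H2B and an H3 gene are shown for the core of 30 genes, and an H4 gene for the core found in 7 H4 genes. They lie at chr6:26043455-26043480 (minus strand), chr6:26021155-26021180 (plus strand) and chr6:26285354-26285379 (minus strand), with the stem-loop in capitals and 5 flanking bases on each side.
H2BC3: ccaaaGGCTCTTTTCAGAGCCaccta
H3C1: gcaaaGGCTCTTTTCAGAGCCaccac
H4C8: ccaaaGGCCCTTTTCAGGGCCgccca

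The 150 bases before the start site are shown for the H4 genes with the highest p-JUN peaks, and for an H3 gene without one. They lie at chr6:26285763-26285912 (minus strand), chr6:26204688-26204837 (plus strand) and chr6:26045462-26045611 (plus strand) of GRCh37, upstream of the single exon. Capitals mark matches, on either strand, to TGACTCA, TGACGTCA, ATTTGCAT (the octamer), CCAAT or TATAAA. A match is a description of the letters and does not show a bound site. Both H4 promoters held TGACGTCA, with its first base at position −131 from the start site. The H3C3 promoter held CCAAT and none of the others.
H4C8: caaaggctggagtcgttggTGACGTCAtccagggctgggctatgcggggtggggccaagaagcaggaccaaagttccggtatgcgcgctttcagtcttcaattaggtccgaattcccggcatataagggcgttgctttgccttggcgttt
H4C5: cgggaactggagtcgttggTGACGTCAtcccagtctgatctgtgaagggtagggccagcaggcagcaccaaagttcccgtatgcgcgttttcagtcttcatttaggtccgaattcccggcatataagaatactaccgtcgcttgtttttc
H3C3: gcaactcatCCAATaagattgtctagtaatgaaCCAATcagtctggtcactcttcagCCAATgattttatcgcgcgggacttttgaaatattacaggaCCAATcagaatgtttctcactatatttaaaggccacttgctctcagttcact

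H2A and H2B genes often share a promoter. There were 8 divergent pairs whose start sites lay 194 to 251 bp apart, and the whole sequence between the start sites is printed for 3 of them, on the plus strand of GRCh37. H2BC12/H2AC12 (chr6:27114635-27114884) had p-JUN peaks and a TGACGTCA site, H2BC11/H2AC11 (chr6:27100575-27100821) had the highest p-JUN fold of any pair and no such site, and H2AC1/H2BC1 (chr6:25726791-25727004), a pair known for expression in testis, had no peak in any list. Capitals mark the same motifs. The octamer stood in all of these sequences, also between the genes without a peak.
H2BC12/H2AC12: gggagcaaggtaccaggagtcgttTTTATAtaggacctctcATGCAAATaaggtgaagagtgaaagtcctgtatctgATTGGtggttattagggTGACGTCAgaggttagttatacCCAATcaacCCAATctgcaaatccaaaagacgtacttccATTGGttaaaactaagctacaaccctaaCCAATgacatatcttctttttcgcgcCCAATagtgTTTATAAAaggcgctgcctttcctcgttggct
H2BC11/H2AC11: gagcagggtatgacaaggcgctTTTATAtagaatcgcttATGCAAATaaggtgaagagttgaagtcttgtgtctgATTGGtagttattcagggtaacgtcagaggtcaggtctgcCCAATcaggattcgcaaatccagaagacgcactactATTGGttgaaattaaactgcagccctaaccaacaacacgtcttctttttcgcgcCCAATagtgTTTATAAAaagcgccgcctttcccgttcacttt
H2AC1/H2BC1: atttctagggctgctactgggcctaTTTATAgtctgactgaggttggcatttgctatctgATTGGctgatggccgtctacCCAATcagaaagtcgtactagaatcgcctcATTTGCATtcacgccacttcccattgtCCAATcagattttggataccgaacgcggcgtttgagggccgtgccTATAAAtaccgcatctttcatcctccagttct

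H3K4me3 covered nearly all of the histone genes. A gene was called where a peak overlapped 1 kb to either side of an annotated start site by at least 1 bp. By that rule 44 of 51 members had an H3K4me3 peak in all 4 lists, or 86.3%, and over all 19821 genes the same call was made for 62.8%. Calls fell in all 4 lists for 4 of 6 H1, 11 of 12 H2A, 12 of 13 H2B, 8 of 10 H3 and 9 of 10 H4 genes. The genes without a peak in any list were H2AC1 and H2BC1 of the first block, H1-1, H1-6, H4C7 and H3C12. Of these, H1-6 encodes the testis linker histone. With H3C8 a total of 45 members were called in at least 1 list, against 65.5% of all genes. H3C8 was called in 3 of 4 lists, with folds of 4.86, 3.21 and 4.27. In a bulk assay, fewer cells that carry a mark and less of it per cell cannot be told apart.

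The fold is the deposited ratio of the peak summit to the local background of its own library. Among members with an H3K4me3 peak, the mean fold over lists ran from 3.43 to 10.5 with a median of 5.45. The H4 genes had the highest median fold, 8.51, against 5.78 for H1, 5.18 for H3, 5.08 for H2B and 5.01 for H2A. Fragments at the summit did not follow this order. In soft 1 the H4 genes alone under a peak held from 61 (H4C3) to 171 (H4C8). Divergent pairs of H2A and H2B genes with a peak held from 99 (H2AC14/H2BC14) to 251 (H2AC15/H2BC15). By fold H4C12 stood first, with 7.95 and 10.5 on soft and 11.6 and 11.7 on stiff. H4C11 had 8.66 and 9.75 on soft and 11.2 and 11.6 on stiff. H4C9 had 8.53 and 9.72 on soft and 10.3 and 11.1 on stiff. These H4 genes lie alone under their peaks, and in each of them both stiff values were above both soft values. The median fold of all peaks was also higher in the stiff lists, 8.71 and 8.81 against 8.27 and 8.4, and with each library centred on its median over regions, both stiff libraries lay above both soft ones in 19.3% of all H3K4me3 regions. At the other end H3C10 had 3.16 and 3.4 on soft and 3.67 and 3.49 on stiff. H3C4 and H2AC7, which share a peak, had 3.38 and 3.29 on soft and 3.57 and 3.62 on stiff.

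Each H3K4me3 list held 31 to 32 distinct peaks for the 44 to 45 called members, so many peaks served 2 genes and those genes share 1 value. The peaks were wide. The highest peaks at members had a median width of 1820 to 1950 bp per list, against 1200 to 1280 bp at all genes, and in each list 30 to 32 of the 35 to 36 called genes under 1 kb lay wholly inside peaks. The summits held about as many fragments as those of other genes, with medians of 146 and 175 for soft and 216 and 304 for stiff, against 163, 202, 213 and 305 at all genes. The local background was higher at the members. It came to 26.3, 31.5, 32.8 and 48.5 fragments, against 16.7, 20.3, 20.6 and 29.6 at all genes. The median fold of these peaks was lower, 5.32 to 6.05 per list at members against 8.98 to 9.68 at all genes and 11 to 12.3 at the neighbours. These values describe the lists, and the fold of members against other genes was not tested.

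**Figure D1:**
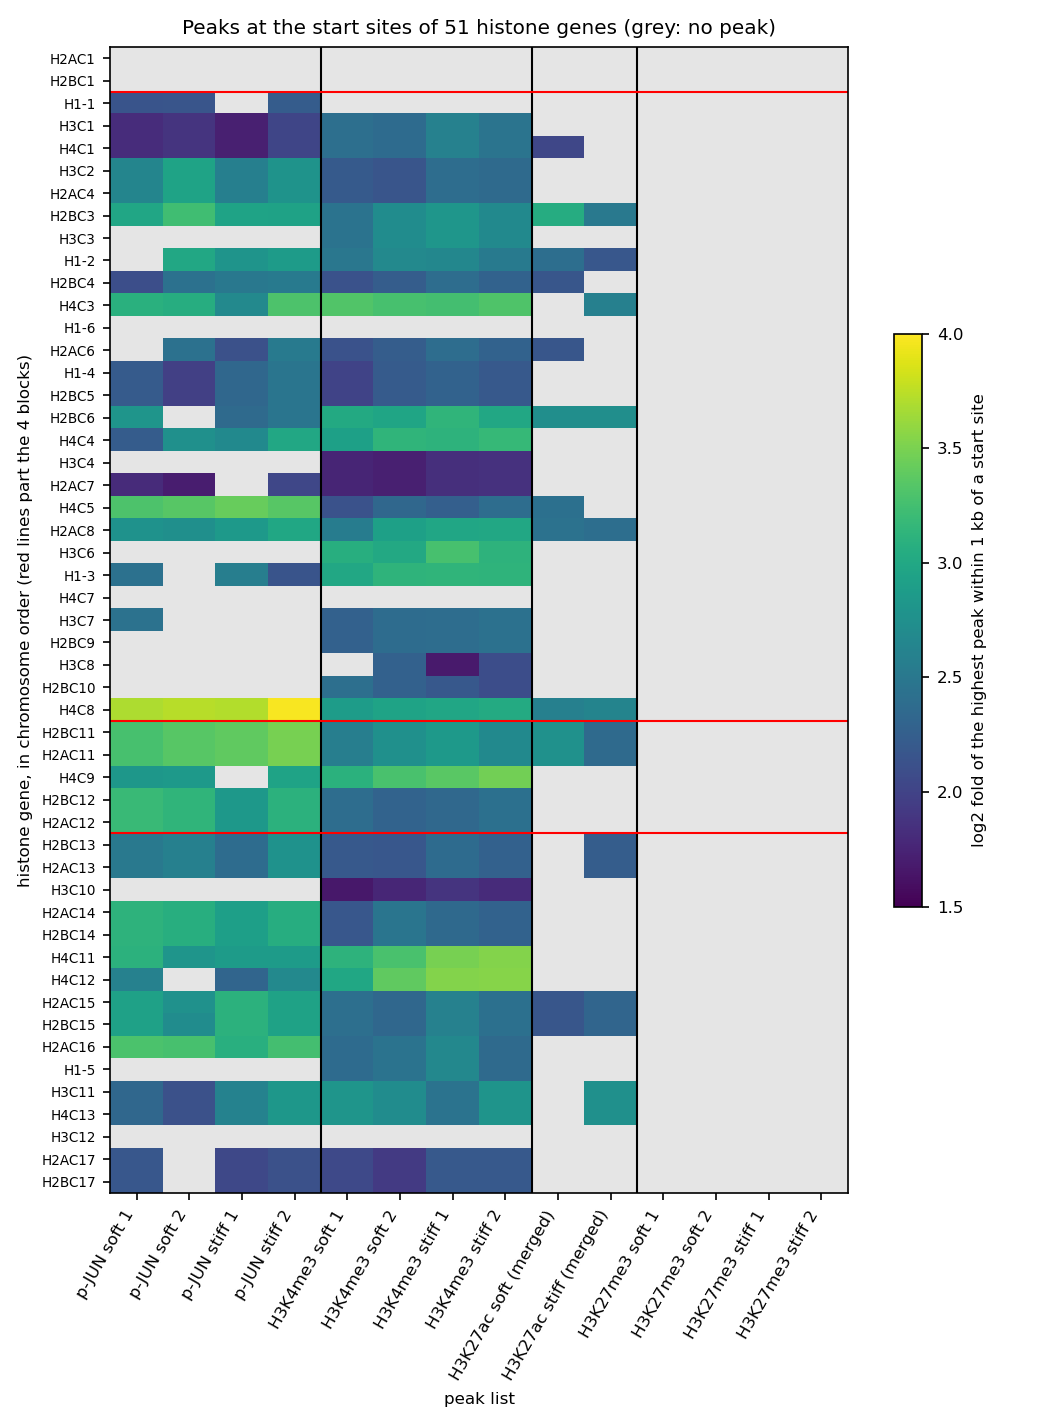
Fold of the highest peak within 1 kb of a start site for each of the 51 genes (rows, in chromosome order, red lines between the 4 blocks) in each of the 14 lists (columns, by antibody, matrix and replicate), as colour on a log2 scale with grey for no peak. H3K4me3 was present in all 4 lists at 44 genes, p-JUN at 27, H3K27ac in both lists at 9, and the H3K27me3 columns are grey throughout.

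p-JUN peaks were found at most of the histone genes. In all 4 lists 27 of 51 members were called, or 52.9%, against 38.2% of all genes by the same call. A further 11 were called in 1 to 3 lists and 13 in none, so 38 were called in at least 1 list, against 53.2% of all genes. All 27 also carried H3K4me3 in all 4 lists, as did 94.5% of all genes with that p-JUN call. Among the 44 members with H3K4me3 in all lists, p-JUN was in all lists at 61.4%, against 57.4% of all genes and 38.7% of neighbours with the same H3K4me3 call, so the share among marked genes lay near that of the genome. H1-1 was the reverse case, with p-JUN folds of 4.43 and 4.48 on soft, 4.69 in a stiff list and no H3K4me3 peak.

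The share of genes with p-JUN varied over the families, which was not tested. Of 10 H3 genes 3 were called in all lists and 6 in none, H3C3, H3C4, H3C6, H3C8, H3C10 and H3C12. The H3C1 summits lay at 1079 to 1261 bp from its start site, nearer that of H4C1. At H3C11 they lay at −1369 to −968 bp, nearer the start site of H4C13. Of 6 H1 genes 1, H1-4, was called in all lists, with summits at 1126 to 1966 bp, nearer the start site of H2BC5. H1-5 and H1-6 had no peak. Calls in all lists fell on 8 of 12 H2A genes, where H2AC1 alone had none, and on 8 of 13 H2B genes, where H2BC1, H2BC9 and H2BC10 had none. Among H4 genes 7 of 10 were called in all lists and H4C7 in none. Of the 13 genes without p-JUN, 8 had H3K4me3 in at least 3 lists, which left H2AC1, H2BC1, H1-6, H4C7 and H3C12 with neither.

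Where it was present, p-JUN fold averaged 3.62 to 13.7 per gene with a median of 6.6. H4C8 had the highest fold of all members, 12.9 and 13.3 on soft and 13.1 and 15.7 on stiff. Fragments at its summit numbered 226 and 212 in the soft libraries, both between the 184 and 238 of the stiff ones. Second among H4 genes, H4C5 had 9.85 and 10.2 on soft and 10.7 and 10.2 on stiff. Both stood above the remaining H4 genes in every list. Of these the next, H4C3, had 8.48 and 8.31 on soft and 6.4 and 9.84 on stiff.

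Among H2A and H2B genes the divergent pair H2BC11/H2AC11 had the highest mean fold, and other pairs lay below unpaired genes. H2BC11 and H2AC11 share a peak with folds of 9.67 and 10.2 on soft and 10.5 and 11.2 on stiff. H2BC12 and H2AC12 share one with 9.15 and 8.81 on soft and 7.12 and 8.62 on stiff. H2AC16, an H2A gene without a paired H2B partner, had 9.8 and 9.69 on soft and 8.43 and 9.56 on stiff, above H2BC12/H2AC12 in every list. H2BC11/H2AC11 had both stiff folds above both soft ones, and H2BC12/H2AC12 and H2AC16 the reverse. Of all p-JUN regions, 18.5% had both stiff libraries higher after centring each library on its median, and 21.2% both soft ones. The next pair, H2AC14 and H2BC14, had 8.65 and 8.39 on soft and 7.53 and 8.3 on stiff. H2BC3, which is not in a pair, had 7.87 and 9.43 on soft and 7.75 and 7.69 on stiff. Its mean of 8.18 was above that of H2BC4/H2AC6 (5.28), H2BC13/H2AC13 (5.95) and H2AC17/H2BC17 (4.34). In 5 of the 8 pairs both genes were called for p-JUN in all 4 lists, and in 2 further pairs both were called in 3 lists. H2AC1/H2BC1 had none.

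H3 and H1 genes had lower folds. H3C2, which shares its peak with H2AC4, led the H3 genes with 6.24 and 7.74 on soft and 5.99 and 6.91 on stiff. H3C11, under a peak with H4C13 whose summits were nearer the H4C13 start site, followed with 5.03 and 4.35 on soft and 6.1 and 7.08 on stiff. Soft and stiff overlapped at H3C2 and did not at H3C11. Of the linker histone genes, H1-2 had 7.97 in soft 2 and 6.93 and 7.3 on stiff, while its peak in soft 1, of fold 7.15, lay outside the window. H1-3 had 5.4 in soft 1, no peak in soft 2, and 5.95 and 4.44 on stiff. H1-4, the only H1 gene called in all lists, shares its peak with H2BC5, whose start site was nearer the summits. The folds were 4.64 and 3.93 on soft and 5.06 and 5.56 on stiff.

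**Figure D2:**
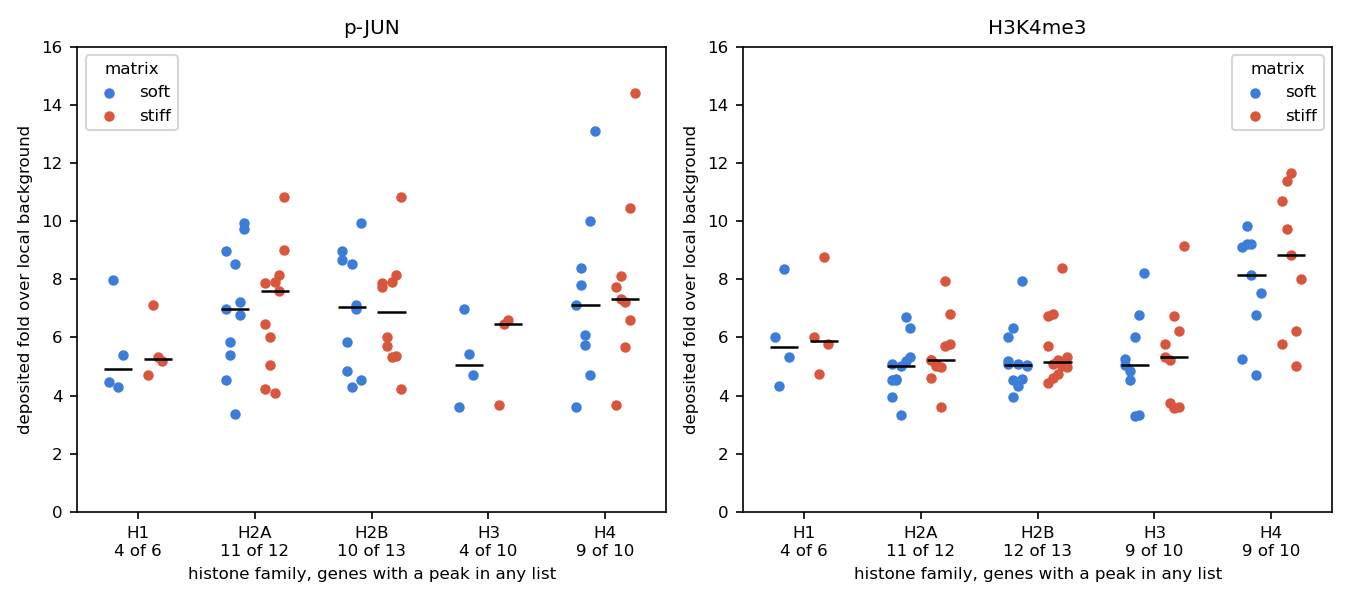
Deposited fold over local background by histone family, for p-JUN (left) and H3K4me3 (right), with 1 point per gene and matrix (blue soft, red stiff), the mean of the libraries with a peak, and black lines for medians. H4C8 is the highest p-JUN gene, and H4 genes have the highest H3K4me3 folds. Genes that share a peak share a value.

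A minority of the promoters with p-JUN held a cyclic AMP response element. Of 27 genes with p-JUN in all lists it stood at 8, or 29.6%. In the 300 bases around the start site, from 250 before it, TGACTCA was found in 0 of 51 members, against 705 of 19821 genes, or 3.56%, so it was rare in both. TGACGTCA was found in 8 members, or 15.7%, against 2.72% of all genes and 0 of 44 neighbours. These were H4C8, H4C5, H2BC12, H2AC12, H2BC14, H2AC14, H2AC16 and H3C2. The divergent pairs share a site, so the letters stood at 6 places, chr6:26032483-26032490, chr6:26204707-26204714, chr6:26285886-26285893, chr6:27114729-27114736, chr6:27782701-27782708 and chr6:27832942-27832949. All 8 genes were among the 27 called for p-JUN in all lists, and neither the 11 genes called in 1 to 3 lists nor the 13 without p-JUN held the letters. Over all genes the call in all lists was made for 71.6% of 539 genes with TGACGTCA and 37.2% of those without, and for 41.7% of those with TGACTCA.

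Summits lay close to these letters. Over 32 pairs of a gene and a list, the summit was 13 to 80 bp from the centre of TGACGTCA. The median was 26 bp, and 30 pairs lay within 50 bp. Divergent genes share a peak and its distance, so such a peak was counted for both genes. The pairs beyond 50 bp were the shared peak of H2BC12 and H2AC12 in stiff 2, at 80 bp. Among the highest p-JUN peaks at members, 19.2 to 26.1% per list held TGACGTCA within 50 bp of the summit, against 2.17 to 2.98% at any start site. TGACTCA stood there in 0 of the 23 to 26 peaks of each list, against 8.25 to 10.6% of peaks at any start site and 29.2 to 31.4% of all p-JUN peaks. The mean fold of the 8 genes with TGACGTCA ran from 6.72 to 13.7 with a median of 8.42. The 19 others called in all lists had 3.63 to 10.4 with a median of 6.47, so the groups overlapped.

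The octamer and CCAAT went by family. The octamer stood in 10 of 12 H2A and 10 of 13 H2B genes and in no H1, H3 or H4 gene, 39.2% of members against 1.58% of all genes. Of the 27 genes with p-JUN in all lists 40.7% held it, and of the 13 without p-JUN 30.8%. CCAAT was found in 88.2% of members against 35.9% of all genes, in every H1, H2A, H2B and H3 gene and in 4 of 10 H4 genes. TATAAA was found in 68.6% against 9.73%, and in each family, from 50% of H1 to 76.9% of H2B genes.

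**Figure D3:**
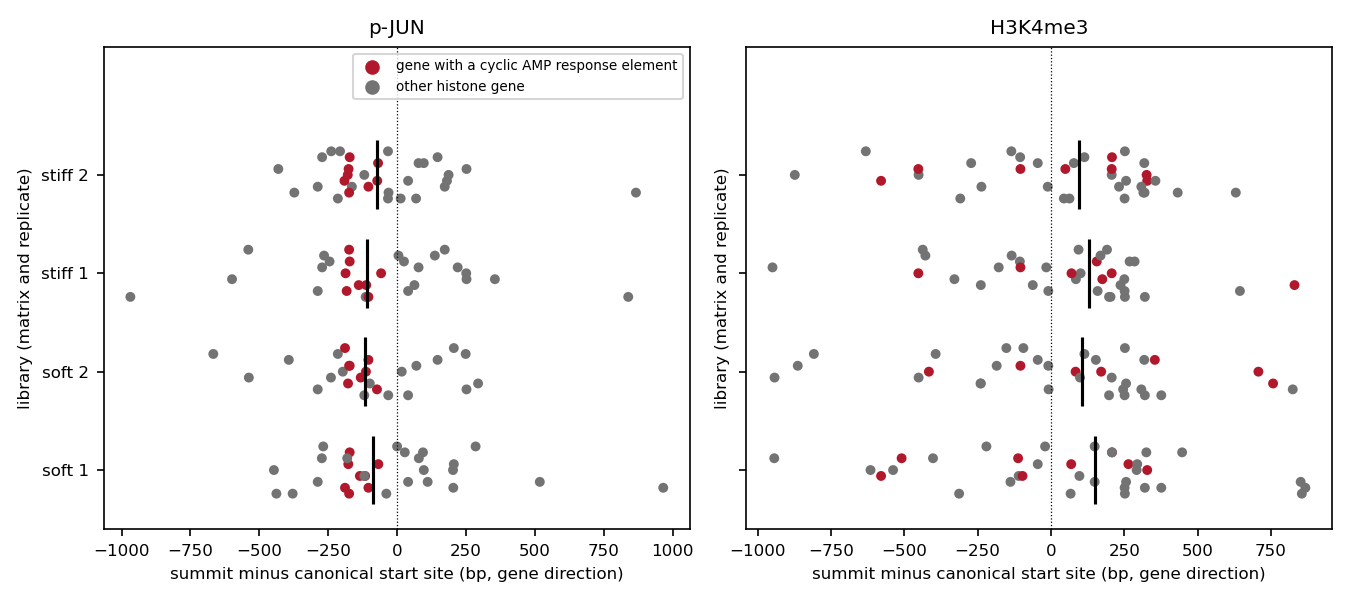
Distance of the peak summit from the canonical start site in bp, negative before the gene, for p-JUN (left) and H3K4me3 (right) in each library, with 1 point per gene (red for genes with a cyclic AMP response element), black bars for medians and summits beyond 1 kb left out. Median p-JUN summits lay at −116 to −72 bp and median H3K4me3 summits at 96 to 149 bp.

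Median summits of p-JUN and H3K4me3 lay on opposite sides of the start site. Median p-JUN summits at members lay at −86 and −116 bp on soft and −108 and −72 bp on stiff, so on the promoter side, as at other genes with medians of −88 to −68 bp. Median H3K4me3 summits lay inside the genes, at 149 and 106 bp on soft and 128 and 96 bp on stiff, where other genes had medians of 201 to 217 bp. Still, 38.2 to 44.1% of these summits at members lay before the start site, against 25.8 to 28% at other genes. At 2 genes the highest H3K4me3 peak was at a start site other than the canonical one. For H2BC6 it was chr6:26171836-26173749, and for H3C6 chr6:26223393-26224800, with folds of 8.41 and 8.03 on soft and 9.65 and 8.67 on stiff.

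Some histone genes are near-identical copies of each other. The share of 32-base words within 1 kb of the start site that recur elsewhere in the genome had a median of 7.11% over members and was highest at H4C11, with 31.7%, and at H2BC13 and H2AC13, with 28.3%. It was 0.0% at H4C8 and 6.24% at H4C5. Genes with p-JUN in all lists had a median of 8.02% and those without p-JUN 2.74%, so the genes without p-JUN had the lower median. The first 500 bases of H4C11 and H4C12 recurred most, with 66.2%, and values for these genes are uncertain to that extent.

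H3K27ac was sparser. In both lists 9 of 51 members were called, or 17.6%, against 21.2% of all genes. In either list 18 of 51 were called, a share near the 34.5% of all genes. All 18 had H3K4me3 in all lists, and 15 of them, or 83.3%, p-JUN in all lists. Among all genes with H3K27ac in either list these shares were 97.7% and 76.9%, so the members lay near them. Of members with H3K4me3 in all lists 40.9% had H3K27ac in either list, against 53.7% of all genes with that call and 61.3% of neighbours. Of members with p-JUN in all lists 25.9% had it in both lists, against 46.8% of all genes with that call. The genes with H3K27ac on both matrices were H2BC3 (fold 8.25 on soft and 5.7 on stiff), H2BC6 (6.64 and 6.66), H4C8 (6 and 6.18), H2BC11 and H2AC11 (6.78 and 5.15), H2AC8 (5.45 and 5.28), H1-2 (5.28 and 4.53), and H2AC15 and H2BC15 (4.5 and 4.99). The H2BC6 peak was at its other start site, with summits at −11720 bp on soft and −11640 bp on stiff from the canonical one. The H1-2 summits lay at 1266 and 1069 bp, past the end of the 731 bp gene.

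Single lists held further H3K27ac calls. In the soft list alone were H4C5 with a fold of 5.35, H2BC4 and H2AC6 with 4.51 and H4C1 with 4.1. In the stiff list alone were H3C11 and H4C13 with 6.74, H4C3 with 6.03, and H2BC13 and H2AC13 with 4.73. The summit shared by H3C11 and H4C13 lay at −1041 bp from the H3C11 start site and at 147 bp from that of H4C13. That was 4 genes against 5, while over all genes 10.7% were in the soft list alone and 2.58% in the stiff list alone. There was 1 list per matrix, so these calls have no replicate check, and the median H3K27ac summit of a list held 26 to 27 fragments.

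H3K27me3 was not called at any histone gene. No member had a peak in any of the 4 lists, while of all genes 10.3% had one in at least 1 list, 2.43% in all lists, 0.843% on soft alone and 0.0353% on stiff alone. The nearest peaks lay 5.55 and 10 kb from a start site on soft and 29.4 and 5.84 kb on stiff, each time from H2AC1 or H2BC1. The interval held 19 to 49 H3K27me3 peaks per list. The genes without H3K4me3 thus lacked a called H3K27me3 peak too. Depth is unknown for H3K27me3, and a broad mark under the threshold of the peak caller would not be listed.

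The neighbours allow a comparison within the same stretch of chromosome. In the 4 lists p-JUN was called at 70.6 and 62.7% of members on soft and 66.7 and 72.5% on stiff, against 45.5 and 50% and 29.5 and 43.2% of neighbours. The difference averaged 26.1 points (SD 10.2, n = 4 lists) and was positive in every list, with a two-sided exact sign-flip p of 0.13, the smallest that 4 lists allow. H3K4me3 was called at 86.3 to 88.2% of members against 70.5% of neighbours in each list. That difference was 17.3 points (SD 0.98, n = 4 lists, exact sign-flip p = 0.13), and 4.37 points when the summit had to lie inside the window. H3K27ac went the other way, at 25.5 and 27.5% of members against 40.9 and 31.8% of neighbours, −9.89 points on average (n = 2 lists, exact sign-flip p = 0.5, the smallest possible).

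Histone genes elsewhere gave similar shares. Against the 14 replication-dependent genes outside the interval, the members' p-JUN share differed by 5.64 points (SD 6.53, n = 4 lists, exact sign-flip p = 0.25) and the H3K4me3 share by −5.11 points (SD 0.98, n = 4 lists, exact sign-flip p = 0.13). Against the 11 variant histone genes, most of which are also expressed outside S phase, the p-JUN difference was 4.5 points (SD 6.78, n = 4 lists, exact sign-flip p = 0.5). All 11 variant genes had H3K4me3 in all lists, so the members were lower by 12.3 points on average. A single gene is 7.14 points of the 14 and less of the members, and libraries, not genes, were the replicates.

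**Figure D4:**
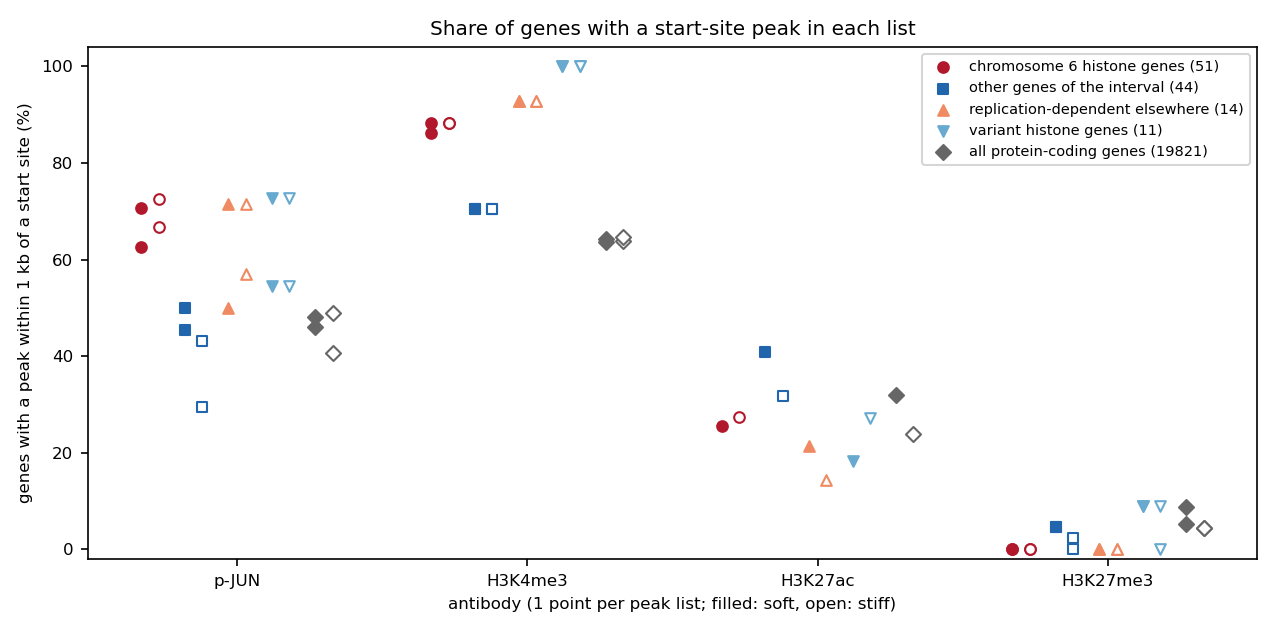
Share of genes, in percent, with a peak within 1 kb of a start site, for the 51 chromosome 6 histone genes and 4 other gene sets, with 1 point per peak list (filled soft, open stiff) and the antibodies along the horizontal axis. For p-JUN and H3K4me3 every member point lies above every neighbour point, and for H3K27ac every member point lies below.

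Soft and stiff matrices gave similar numbers of histone genes. p-JUN was called at 36 and 32 genes on soft and at 34 and 37 on stiff, a difference of 1.5 (two-sided exact permutation p = 0.667, smallest possible 0.333). H3K4me3 was called at 44 and 45 genes on soft and at 45 and 45 on stiff, a difference of 0.5 (exact permutation p = 1.0). H3K27ac was called at 13 genes on soft and 14 on stiff, with no test, and 9 of the 18 called genes were in both lists. No member had p-JUN or H3K4me3 in both libraries of a matrix and in neither of the other. Over all genes 0.928% had p-JUN on soft alone and 0.257% on stiff alone, and for H3K4me3 these shares were 0.177% and 0.207%.

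Heights were compared with limma on the log2 fold of regions called in all 4 lists, each library centred on its median and p-values adjusted over all regions. Of 40433 p-JUN regions 0 passed an adjusted p of 0.05, or 0.0%, and 3773 had an unadjusted p under 0.05. Of 16098 H3K4me3 regions 0 passed as well, or 0.0%, with 1607 under the unadjusted threshold. The members held 21 of the p-JUN and 31 of the H3K4me3 regions. Over them the median difference, stiff minus soft on the log2 scale, was −0.0152 for p-JUN and 0.0474 for H3K4me3, with a median SE of 0.131 and 0.0971 for a single region. The difference was above 0 in 10 of 21 p-JUN regions, and in 22 of 31 H3K4me3 regions, 71%, against 48.4% of all H3K4me3 regions. Leaving out 1 library moved the H3K4me3 median between −0.00685 and 0.118.

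The largest p-JUN difference was at H3C11 and H4C13. Centred log2 folds were −0.79 and −0.99 with soft and −0.49 and −0.4 with stiff, a difference of 0.45 (SE 0.13, limma adjusted p = 0.419). It was the only member region with an unadjusted p under 0.05. Its summits held few fragments, 26 and 20 with soft and 26 and 33 with stiff. With fragments in place of fold the difference was 0.305 (SE 0.233, limma adjusted p = 0.404). H1-4 and H2BC5 (0.27, SE 0.13) and H2AC8 (0.12, SE 0.12) followed among regions with both stiff libraries above both soft ones. With both soft libraries higher were H2AC12 and H2BC12 (−0.24, SE 0.11), H2AC16 (−0.16, SE 0.10), H2AC14 and H2BC14 (−0.15, SE 0.11) and H1-2 (−0.13). The first 3 of these regions hold TGACGTCA and H1-2 does not, and the other regions with it, at H4C8 (0.09), H4C5 (0.01) and H2AC4 and H3C2 (−0.16), overlapped between matrices. In total 4 member regions were higher on stiff and 4 on soft without overlap, while such non-overlap was found in 18.5% and 21.2% of all p-JUN regions.

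Among H3K4me3 regions H4C12 and H4C11 led, near-identical genes with 66.2% recurring words in the first 500 bases of each. The other H4 regions ran from −0.21 (H3C11 and H4C13) to 0.16 (H4C9). H4C12 differed by 0.27 (SE 0.12), H4C11 by 0.24 (SE 0.08, limma adjusted p = 0.448) and H2AC8 by 0.18 (SE 0.12), all with both stiff libraries above both soft ones. The opposite was seen at H2BC10 and H3C8, with −0.28 (SE 0.10, limma adjusted p = 0.488), and at H4C3, with −0.09 (SE 0.08). Only 2 member regions did so. There were 6 non-overlapping regions higher on stiff and 2 on soft, against 19.3% and 22.4% of all H3K4me3 regions. For H3K27ac the 8 member regions in both lists differed by −0.43 to 0.26 with a median of 0.0206, with no test.

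Fragments at the summit gave more calls than the fold. With fragments in place of fold, and each library again centred on its median, limma called 708 of 16098 H3K4me3 regions, or 4.4%. Of these 8 were at members and all were higher on stiff, H4C12 (0.65, SE 0.13), H4C11 (0.56, SE 0.09), H1-4 and H2BC5, H2AC4 and H3C2, H2AC17 and H2BC17, H2AC7 and H3C4, H2AC11 and H2BC11, and H2AC6 and H2BC4, with adjusted p from 0.00453 to 0.0471. The local background was higher in the stiff libraries at members and at all genes alike, as given above. With fragments divided by that background, limma called 0 of 16098 H3K4me3 and 0 of 40433 p-JUN regions. The cause of the fragment differences was not tested. With fragments alone, 5470 p-JUN regions were called, or 13.5%. The 1 member region was that of H2AC12 and H2BC12, at −0.50 (SE 0.16, limma adjusted p = 0.0233). Its fragments went from 100 and 79 with soft to 58 and 74 with stiff.

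**Figure D5:**
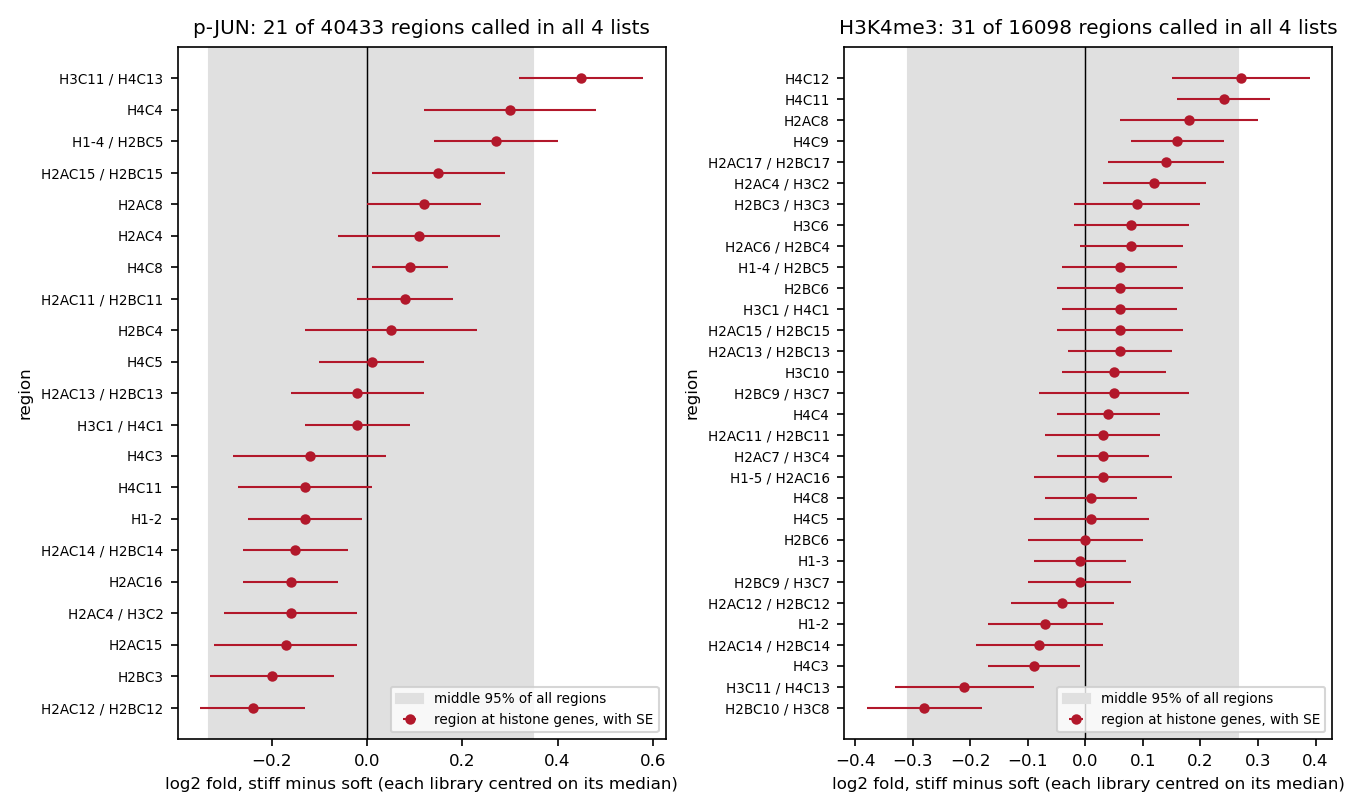
Log2 fold, stiff minus soft, of each region at the histone genes called in all 4 lists, for p-JUN (left, 21 regions) and H3K4me3 (right, 31 regions), with bars for the SE from limma and grey for the middle 95% of all regions. H3C11/H4C13 lies beyond the grey band for p-JUN and H4C12 just beyond it for H3K4me3, and no region passed an adjusted p of 0.05.

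Genes that act on histone genes were read by the same calls, without a test. In a list of 23 genes for histone gene transcription and mRNA end processing, H3K4me3 was in all lists at 23, p-JUN in all lists at 11 (47.8%), H3K27ac in both lists at 9 (39.1%) and H3K27me3 in none. Over all genes these calls were made for 62.8%, 38.2% and 21.2%. Among all genes with H3K4me3 in all lists, 57.4% had p-JUN in all lists and 33.1% H3K27ac in both. p-JUN was present in all lists at NPAT, the coactivator, HINFP, which binds H4 promoters, CASP8AP2, NFYA and NFYC, and LSM10 and ZNF473 of the U7 processing machinery. CCNE2, COIL, CPSF3 and NCBP1 were called as well. SLBP and POU2F1 were not called in all lists, and CPSF2 and E2F1 in none. Of 16 S phase genes 16 had H3K4me3 in all lists, 10 (62.5%) p-JUN and 1 (6.25%), PCNA, H3K27ac in both lists. The regions at these lists gave no stiff against soft call, with a lowest limma adjusted p of 0.511 for p-JUN and 0.394 for H3K4me3.

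The lists of a mark were close in length for p-JUN and H3K4me3 and not for H3K27ac and H3K27me3. The p-JUN lists held 48163 to 54168 peaks with a median of 60 to 64 fragments at the summit, and the H3K4me3 lists 18096 to 18857 with 120 and 141 for soft and 151 and 207 for stiff. The H3K27ac lists held 18238 peaks on soft and 13322 on stiff, and the H3K27me3 lists 19843, 9228, 7104 and 6974. Of 9 stellate and mesenchymal markers 5 had H3K4me3 in all lists, ACTA2, COL1A1, PDGFRB, TAGLN and VIM, and COL1A2, DES and LRAT had none. Of the markers of hepatocytes, endothelium and immune cells none had it, and of 3 epithelial markers EPCAM did.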

How the data were processed

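Peak lists from CUT&Tag were analysed for p-JUN, H3K4me3, H3K27ac and H3K27me3 in LX-2 cells on soft or stiff matrix, grouped by the treatment label. Per the labels and the study's methods, the authors used Trim Galore for trimming, Bowtie2 for alignment to hg19, Picard for duplicates and MACS2 for peaks. Versions, options and any control library are not given in the sources used here. For each peak the authors deposited a fold over local background (a ratio), its −log10 p and −log10 q, and a score equal to 10 times −log10 q. The lowest −log10 q was 5.0 in the narrow lists and 1.31 in the broad H3K27me3 lists. Read totals were not analysed here, so depth was taken from fragments at the summit, solved for each narrow peak from its deposited fold and −log10 p. Whole numbers came out for at least 99.9% of peaks of each list within a relative error of 1e-04. No scaling between lists was applied to the calls and the printed folds, and deeper libraries can yield longer lists. For the comparison of heights each library was centred on its median.

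The 2 to 8 mitochondrial peaks of each list were dropped and those on 24 chromosomes kept. Start sites were those of protein-coding transcripts in GENCODE release 44 mapped to GRCh37, and no peak ran past a chromosome end of that build. The p-JUN and H3K4me3 regions called in all 4 lists were compared with limma 3.58.1 (R 4.3.3) on log2 fold, with the Benjamini-Hochberg adjustment over all regions. Counts and shares were compared by two-sided exact permutation and sign-flip tests over lists. Sequences were read from the GRCh37 genome with python 3.11.15, numpy 2.4.6, pandas 2.3.3 and scipy 1.17.1, and drawn values with matplotlib 3.10.9. The calls and the limma step were tested on simulated data. Genes named in the text were those with a peak on 1 matrix only, without H3K4me3 or p-JUN peaks, the 2 with the highest mean p-JUN fold per family, and the 3 regions with the largest difference in each direction among those without overlap. Further genes, such as those with the highest and lowest H3K4me3 fold or with a motif, were named after their values were seen. The motif, stem-loop and repeat searches were also chosen after the files were seen. The members and gene lists were chosen with earlier results of these data known. Alternatives tried were the window, the q threshold, lists of equal length, the summit inside the window, the scaling, fragments in place of fold, the replicate block and each library left out.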

Additional observations from a re-analysis of the deposited data

How the results depend on the processing

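Of 114 alternative values 88 were counted as the same, some at another size, 14 as moved and 12 as changed in sign. Moved means that a difference of counts became 0, or that a count over every list changed more than 1.5-fold. It also means that a height difference kept its sign and shifted by more than an SD. That SD was between libraries, or over regions for H3K27ac. All that moved or changed sign were stiff against soft differences except 1 H3K27ac count. For those that changed the cause was not tested. The stiff minus soft count of p-JUN genes, 1.5, was −0.5 with a 2 kb window, 0 at −log10 q of at least 10, −0.5 with lists of equal length and −0.5 to 3.5 with a library left out. The H3K4me3 count, 0.5, was 0 with a 2 kb window or with the summit inside, and 0 to 1 with a library left out. The H3K27ac count, 1, was 0 with a window of 0.5 or 2 kb or the summit inside, −1 at −log10 q of at least 10, and 6 with lists of equal length. The median p-JUN fold difference, −0.0152, was −0.182 with fragments, 0.0156 without the 1 added to both sides of the fold, 0.0315 centred on start sites, −0.123 at −log10 q of at least 10, and −0.0619 to 0.0149 with a library left out. For H3K4me3, 0.0474, it was 0.189 with fragments and −0.00685 to 0.118 with a library left out. For H3K27ac, 0.0206, it was −0.00929 without the added 1, −0.0153 after quantile scaling, −0.00649 centred on start sites and 0.12 at −log10 q of at least 10. The member minus neighbour shares kept their sign in every alternative, at 18.7 to 33.8 points for p-JUN, 4.37 to 19.2 for H3K4me3 and −12.8 to −6.95 for H3K27ac. Genes called in every list numbered 23 to 34 for p-JUN, 33 to 46 for H3K4me3 and 6 to 14 for H3K27ac, the 14 from the stiff list alone, and stayed at 0 for H3K27me3.

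With the replicate number as a block the values were unchanged (1.5 and 0.5 genes, −0.0152 and 0.0474), and limma called 41 p-JUN and 0 H3K4me3 regions, none at a histone gene. Deviations of same-numbered libraries correlated at 0.00468 for p-JUN and −0.0501 for H3K4me3. Each library had been centred on its median, which removes a shift common to all regions. The check therefore cannot tell whether same-numbered libraries came from 1 culture. Other settings called 14 to 23 p-JUN regions (without soft replicate 1 or 2, or centred on start sites) and 1 H3K4me3 region (without soft replicate 2). The fold without the added 1 and the alternatives of the counts over every list were chosen after seeing the data. H3K27ac has no replicate, the depth of H3K27me3 is unknown, and peaks shared by divergent genes count for both.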
